A study of Mus musculus with 10 samples.

Results

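The 10 genes described here encode drug-metabolizing cytochrome P450 enzymes of the CYP3A and CYP2 families that are known from the small intestine of the mouse. They were taken as a named list of CYP3A genes (Cyp3a11, Cyp3a13 and Cyp3a25) and CYP2 genes (Cyp2b10, Cyp2c29, Cyp2c55, Cyp2c65, Cyp2c66, Cyp2d26 and Cyp2j6), and all 10 were found among the 55414 genes of the count files. All 10 also passed the filter on low counts that left 18654 genes for testing. RNA of the jejunum, the part of the small intestine between duodenum and ileum, was sequenced in 10 libraries from male C57BL/6J mice. The RetSat ko libraries (n = 5) had the genotype RetSat flox/flox villin-Cre-ERT2 (+), and the control libraries (n = 5) had RetSat flox/flox villin-Cre-ERT2 (-). Both genotypes carried floxed Retsat, which encodes retinol saturase, got tamoxifen for 5 days, and were then kept for 14 weeks on a high-fat diet in which fat gave 60% of the energy. The ages of the mice are not given in the sources used here. The villin promoter drives this tamoxifen-dependent Cre recombinase in the intestinal epithelium, so other cells of the jejunum keep the intact gene, and loss of Retsat cannot be told apart from presence of the active recombinase.

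Cytochrome P450 enzymes hold a haem group and insert an oxygen atom into fat-soluble molecules, which makes drugs, food compounds, steroids and fatty acids easier to clear. They sit in the endoplasmic reticulum and receive electrons from cytochrome P450 oxidoreductase, and their genes are switched on by receptors that sense foreign compounds and bile acids, chiefly the pregnane X receptor (Nr1i2), the constitutive androstane receptor (Nr1i3) and the aryl hydrocarbon receptor (Ahr). In the small intestine they are found mostly in absorptive enterocytes of the villus, where CYP3A enzymes act on swallowed drugs before these reach the liver, and several CYP2C and CYP2J enzymes oxidise arachidonic acid.

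The stretch of coding sequence around the cysteine that holds the haem iron is shown because it is the part that P450 enzymes share, and it shows how near the members are to one another. Each run has 30 coding bases, 10 codons, read 5′ to 3′ from mouse transcripts of GENCODE M21 (build GRCm38), and the capitals mark the codon of the cysteine, codon 8 of the run.
Cyp3a11: tttgggaatggacccaggaacTGCcttggc
Cyp3a13: tttgggagtggaccaaggaacTGCattggc
Cyp3a25: tttggaaatggacccaggaacTGCataggc
Cyp2b10: ttctcaacaggaaagcgcattTGTcttggt
Cyp2c29: ttttcaacaggaaaacggattTGTgctgga
Cyp2c55: ttctcaataggaaagcgaatgTGCgtggga
Cyp2c65: ttctcaacaggaaaacggattTGTgtggga
Cyp2c66: ttctcaacaggaaaacggattTGTgtggga
Cyp2d26: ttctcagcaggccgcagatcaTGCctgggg
Cyp2j6: ttctcaatgggaaagcgagctTGCctggga
Of the 30 bases, 9 were the same in all 10 members. The runs of Cyp2c65 and Cyp2c66 were identical to each other, while the other 8 members each had a run of their own. The 3 CYP3A coding sequences were 76.1% to 76.8% identical to one another, while Cyp2c65 and Cyp2c66 were 96.3% identical.

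Near copies matter for counting, because a read that matches several genes equally well can be left out of the count. Over the transcripts of each member, 20.6% of all 50-base stretches of Cyp2c65 and 19.5% of those of Cyp2c66 also occurred in another gene, nearly all of them in the other member of the pair. The share was 26.8% for Cyp3a25, with 25.2% of all its stretches found in Cyp3a59, and 0 of 2907 stretches for Cyp3a13. The levels of Cyp2c65, Cyp2c66 and Cyp3a25 are therefore less certain than that of Cyp3a13. In the annotation of the files (GENCODE M28, GRCm39), Cyp2c29 overlapped the pseudogene Cyp2c53-ps by 142 exon bases on the same strand. Cyp2c55 overlapped a gene with 0 counts by 64 exon bases on the opposite strand, and the counting did not use strand.

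The libraries held 102844680 to 128730695 counts, and levels are given as CPM, counts per 1000000 of the library size after TMM scaling, edgeR's correction for differences in composition. Retsat fell in RetSat ko, at 15.4 to 33.4 CPM in RetSat ko libraries and 340.2 to 576.2 CPM in control libraries (log2 fold change -4.49 ± 0.277 SE, edgeR quasi-likelihood test with Benjamini-Hochberg adjusted p = 0.000101), and its groups did not overlap. Markers of the tissue were present, with 53600 to 80500 CPM summed over 20 enterocyte markers in RetSat ko and 58200 to 90200 CPM in control. The 12 colon and ileum markers summed to 327 to 430 CPM in RetSat ko and 356 to 438 CPM in control. Of these, Hoxd13 had 0 counts in all libraries and Car1, Hoxb13 and Fabp6 stayed under 1 CPM, while Slc51b was at 78.7 to 107 CPM in RetSat ko and 73.0 to 99.9 CPM in control, and Aqp8 at 11.1 to 30.8 CPM in RetSat ko and 12.7 to 47.9 CPM in control. Pancreatic acinar transcripts set libraries apart, at 3310 CPM summed over 16 markers in RetSat ko 2, 37.3 to 603 CPM in the other RetSat ko libraries and 26.8 to 341 CPM in control. B cell transcripts were also highest in RetSat ko 2 (203 CPM over 12 markers, against 17.5 to 60.5 CPM in the other RetSat ko libraries and 16.2 to 89.0 CPM in control). Whether each library is a separate animal is not stated in the labels, and the p-values refer to the spread between libraries, which may be partly technical.

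No P450 gene of the 10 passed the test for a difference between the genotypes. In edgeR, 0 of 10 members passed an adjusted p of 0.05 over all 18654 genes, where 6 genes or 0.0322% passed, and DESeq2 (0.659% of all genes called) and limma-voom (0.0322%) also called 0 of 10. At an unadjusted p under 0.05 the count was 1 of 10, Cyp2d26, against 12.2% of all genes tested. The ranges of the genotypes overlapped for each of the 10 members, against 2.31% of all genes with ranges that did not overlap. By sign, 8 members were lower and 2 were higher in RetSat ko, with a median log2 fold change of -0.22, where the median over all genes was 0.02 and 46.1% of all genes were negative. In bulk tissue, fewer cells of a type and less RNA per cell cannot be told apart.

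**Figure D1:**
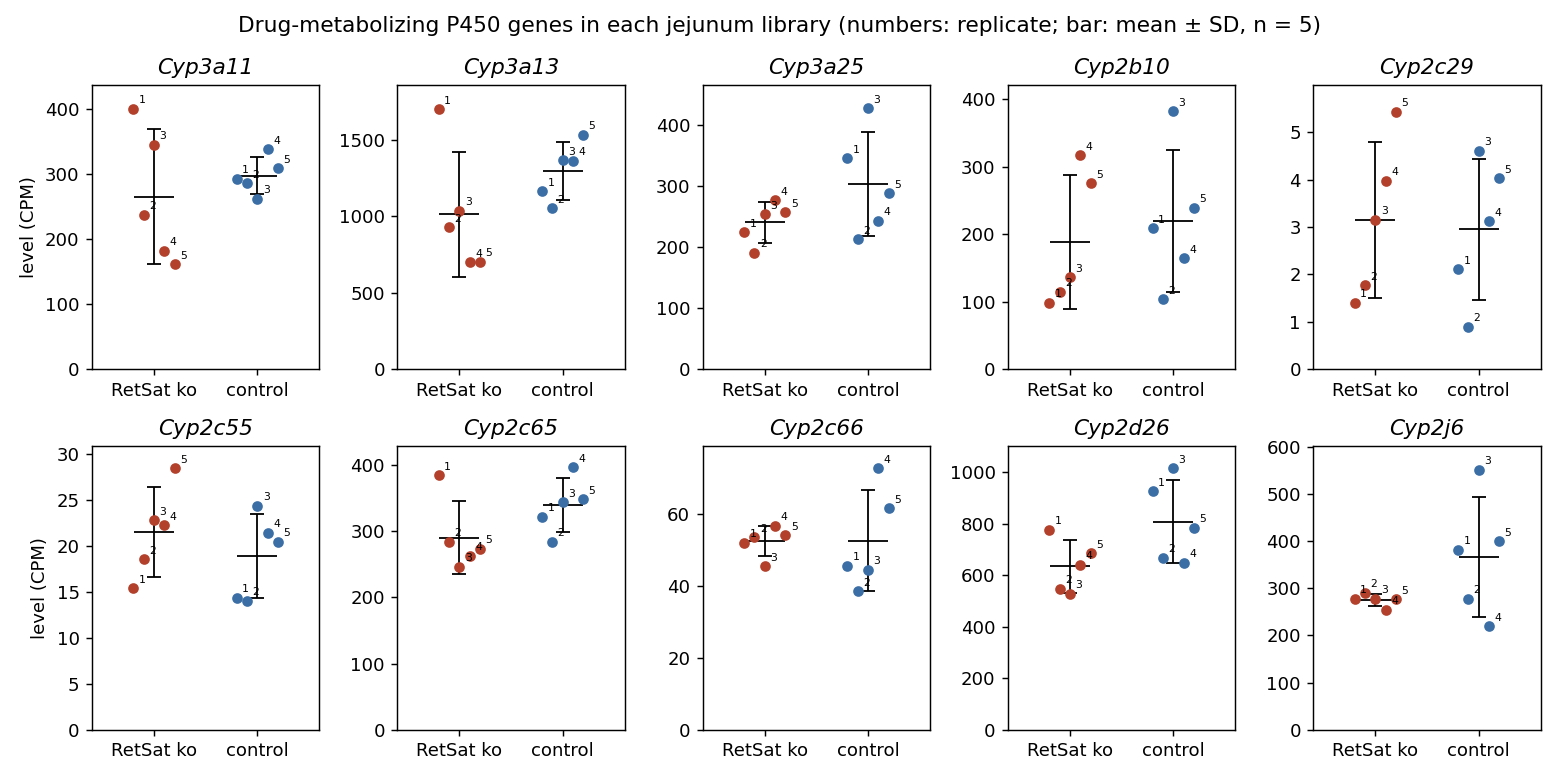
Levels of the 10 P450 genes (CPM, linear axis from 0) in each RetSat ko library (red, left) and control library (blue, right), with the replicate number beside each point and the mean ± SD (n = 5 per genotype) as bars. The genotypes overlap in all 10 panels, and RetSat ko 1 is the highest of all libraries for Cyp3a11 and Cyp3a13.

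The CYP3A enzymes act on a very wide range of drugs and on steroids and bile acids. Cyp3a13, on chromosome 5 (GRCm39, 137891194-137919881, minus strand), is the CYP3A gene known for its high level in mouse small intestine, and it was the most abundant of the 3 here. It had 1699, 928.4, 1037, 699.1 and 703.1 CPM in RetSat ko 1 to 5, against 1163, 1052, 1368, 1362 and 1532 CPM in control 1 to 5. RetSat ko 2 to 5 all lay below the lowest control library, while RetSat ko 1 lay above the highest, so the spread within RetSat ko was wider than the gap between the means (1013 ± 410 CPM in RetSat ko, 1296 ± 189 CPM in control, SD, n = 5 each). The log2 fold change of Cyp3a13 was -0.35 ± 0.228 (SE), with edgeR adjusted p = 0.546 and p = 0.19 in a two-sided exact permutation test, where the smallest p that 252 splits of 5 against 5 allow is 0.00794.

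Without RetSat ko 1, Cyp3a13 passed the threshold at a log2 fold change of -0.62 (edgeR adjusted p = 0.0423), as the 1 called member of 10. Leaving out that library also took the number of called genes to 846 of 19001 (4.45%), of which 475 (2.5%) were lower in RetSat ko. RetSat ko 1 was not unusual in Retsat itself, at 16.8 CPM where the other RetSat ko libraries had 15.4 to 33.4 CPM. It did have the highest summed enterocyte markers of its genotype (80500 CPM, with 53610 to 58680 CPM in the others) and the lowest summed cell cycle markers (557 CPM, with 694 to 807 CPM in the others). Their part in the Cyp3a13 value was not tested.

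Cyp3a11, the main CYP3A gene of mouse liver and a target of the pregnane X receptor, lies on the same chromosome (145791236-145816774, minus strand). Its level was 400.7, 237.4, 345.5, 182.0 and 161.0 CPM in RetSat ko 1 to 5, against 293.2, 286.4, 261.9, 338.5 and 309.3 CPM in control 1 to 5. The RetSat ko libraries stood on both sides of the control range, with 2 above it and 3 below it, and no RetSat ko library lay inside it. The highest RetSat ko library was 2.49 times the lowest, while the control libraries spanned 1.29 times. For a log2 fold change of -0.17 ± 0.232 (SE), edgeR gave adjusted p = 0.799. Cyp3a25, 145914004-145946428 on the minus strand of chromosome 5, is a further CYP3A gene of mouse liver and intestine. It had 224.2, 190.8, 253.8, 277.2 and 257.6 CPM in RetSat ko, against 345.7, 213.2, 428.1, 243.5 and 288.1 CPM in control. Here control 1 and control 3 were high, and the RetSat ko libraries were all below the control mean, with 4 of 5 inside the control range. For its log2 fold change of -0.34 ± 0.176 (SE), edgeR gave adjusted p = 0.463.

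Cyp2d26 and Cyp2j6 had the values nearest to a difference with all libraries included. Cyp2d26 belongs to the CYP2D subfamily, whose human member CYP2D6 oxidises many drugs, and lies on chromosome 15 (82674302-82678495, minus strand). Its level was 777.6, 547.6, 528.0, 641.5 and 685.8 CPM in RetSat ko and 926.9, 668.4, 1017, 648.6 and 784.4 CPM in control. All 5 RetSat ko libraries lay below the control mean of 809.1 CPM, and 3 of 5 lay below the lowest control library. Its log2 fold change of -0.35 ± 0.149 (SE) had an approximate 95% interval of -0.64 to -0.05, unadjusted p = 0.0382 and adjusted p = 0.384 in edgeR, and p = 0.0952 in the exact permutation test.

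Cyp2j6, a CYP2J gene known from mouse small intestine, lies on chromosome 4 (96404375-96441898, minus strand). It was even across RetSat ko libraries, at 278.2, 290.3, 277.6, 254.7 and 276.7 CPM, and uneven across control libraries, at 381.9, 278.2, 551.7, 219.5 and 400.1 CPM. All 5 RetSat ko values fell inside the control range. The difference was -0.41 ± 0.2 on the log2 scale (SE), the lowest of the 10, with edgeR adjusted p = 0.431.

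Cyp2b10 and Cyp2c29 are genes that the constitutive androstane receptor switches on in mouse liver, and they varied most between libraries of 1 genotype. Cyp2b10, on chromosome 7 (25597045-25626049, plus strand), had 98.43, 114.4, 136.5, 316.9 and 275.5 CPM in RetSat ko, against 209.3, 103.8, 383.0, 164.0 and 239.4 CPM in control. RetSat ko 4 and 5 and control 3 were high, and the lowest libraries of both genotypes were near 100 CPM. Its log2 fold change of -0.22 ± 0.438 (SE) had an approximate 95% interval of -1.08 to 0.63 and edgeR adjusted p = 0.865, so a change of 2-fold in the lower direction lay inside that interval. Its sign turned to 0.075 without control 3.

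Cyp2c29, on chromosome 19 (39257849-39319157, plus strand), was the least expressed of the 10, at 1.40, 1.77, 3.15, 3.97 and 5.43 CPM in RetSat ko and 2.11, 0.891, 4.61, 3.12 and 4.03 CPM in control. The highest library was RetSat ko 5 and the lowest was control 2. On the log2 scale its fold change was 0.10 ± 0.472 (SE), with edgeR adjusted p = 0.952. Without RetSat ko 5 it was -0.195, and without both libraries highest in hepatocyte transcripts (RetSat ko 5 and control 3) it was 0.025 (edgeR adjusted p = 0.998). It was also negative without control 2 (-0.139), control 1 (-0.005) or RetSat ko 4 (-0.003). Without each of the other single libraries it was positive, up to 0.316 without control 3. RetSat ko 5 also held the most of the liver transcript Alb, at 94.7 CPM, with 1.14 to 3.01 CPM in the other RetSat ko libraries and 1.41 to 7.84 CPM in control. Other hepatocyte markers were also highest in RetSat ko 5, among them Ttr (14.8 CPM, with 5.62 to 7.62 CPM in the other RetSat ko libraries and 5.02 to 6.62 CPM in control) and Fgb (3.68 CPM, with 0 to 0.06 CPM in the other RetSat ko libraries and 0 to 0.271 CPM in control). Of the 12 hepatocyte markers tested, 11 were positive and 0 passed (edgeR, 1 at an unadjusted p under 0.05, 0 in DESeq2; median 0.75). Without RetSat ko 5 that median was -0.18. Ambp, another marker of the list, was highest in RetSat ko 1, at 7.31 CPM, with 6.21 CPM in RetSat ko 5. The list of 18 summed to 929 to 1270 CPM in RetSat ko and 980 to 1150 CPM in control, most of it from Cps1, which the intestine also expresses.

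Cyp2c55, Cyp2c65 and Cyp2c66, 3 further CYP2C genes known from the mouse intestine, lie side by side on the plus strand of chromosome 19. Cyp2c55 (38995463-39031137), which oxidises arachidonic acid and is best known from the colon, had 15.35, 18.55, 22.8, 22.23 and 28.41 CPM in RetSat ko, against 14.33, 14.03, 24.35, 21.41 and 20.45 CPM in control. RetSat ko 5 was the highest library, and the log2 fold change of 0.18 ± 0.191 (SE, edgeR adjusted p = 0.724) was the highest of the 10. Cyp2c65 (39049459-39082388) had 385.2, 284.1, 246.7, 263.2 and 273.8 CPM in RetSat ko, against 322.3, 284.4, 344.4, 397.1 and 348.9 CPM in control. RetSat ko 2 to 5 lay below the lowest control library, RetSat ko 2 only just, and RetSat ko 1 lay inside the control range. Its log2 fold change was -0.22 ± 0.126 (SE, edgeR adjusted p = 0.486), and -0.346 without RetSat ko 1 (edgeR adjusted p = 0.0546).

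Cyp2c66 (39102342-39175516) had 51.88, 53.54, 45.47, 56.65 and 54.0 CPM in RetSat ko, against 45.49, 38.47, 44.44, 72.71 and 61.48 CPM in control. The RetSat ko libraries were close to one another and all lay inside the control range. Its log2 fold change was -0.01 ± 0.155 (SE, edgeR adjusted p = 0.992), with an approximate 95% interval of -0.31 to 0.30, and its sign was not stable across settings.

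**Figure D2:**
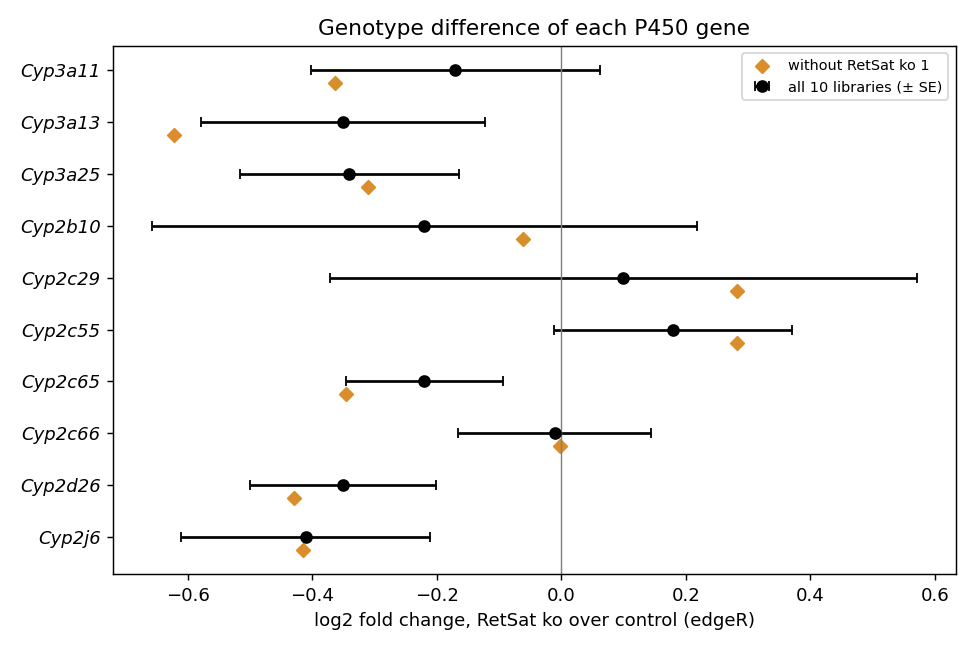
Log2 fold change of each P450 gene, RetSat ko over control (edgeR), with all 10 libraries (black points ± SE) and without RetSat ko 1 (orange diamonds). With all libraries, 8 points lie below 0, and without RetSat ko 1 the value of Cyp3a13 moves to -0.62.

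The pair Cyp2c65 and Cyp2c66 had nearly the same coding sequence and unlike levels, so their promoters are printed. TPM, the share of each gene per 1000000 after its counts are divided by its exon length so that genes can be compared, put Cyp2c65 at 5.63 ± 1.09 times Cyp2c66 in RetSat ko and 6.74 ± 1.05 times in control (SD, n = 5 each), and this ratio did not differ between genotypes beyond its spread (two-sided exact permutation p = 0.0952). Both runs below are the 300 bases from 250 before to 50 after the start of the gene in RefSeq, 5′ to 3′ on build GRCm38.p6, chr19:39060756-39061055 on the plus strand for Cyp2c65 and chr19:39113648-39113947 on the plus strand for Cyp2c66. Capitals mark exact matches, on either strand, to CAAAGTCCA, a core bound by the receptor HNF4, and to TATAAA. Only when close before the start can TATAAA help to position transcription.
Cyp2c65: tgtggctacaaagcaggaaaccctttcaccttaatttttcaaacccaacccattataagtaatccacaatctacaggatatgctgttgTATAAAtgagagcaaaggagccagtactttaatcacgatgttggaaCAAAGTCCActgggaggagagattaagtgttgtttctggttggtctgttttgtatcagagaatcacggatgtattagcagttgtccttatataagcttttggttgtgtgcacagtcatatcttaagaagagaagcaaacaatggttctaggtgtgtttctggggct
Cyp2c66: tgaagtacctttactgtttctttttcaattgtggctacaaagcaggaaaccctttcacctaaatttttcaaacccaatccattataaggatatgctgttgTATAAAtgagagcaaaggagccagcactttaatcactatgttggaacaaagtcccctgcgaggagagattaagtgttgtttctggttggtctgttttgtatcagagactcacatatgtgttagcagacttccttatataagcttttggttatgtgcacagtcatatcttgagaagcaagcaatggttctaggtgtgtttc
The windows of the pair were 77.8% identical. TATAAA occurred in both, while CAAAGTCCA occurred in that of Cyp2c65 and in that of Cyp3a11, and in no other member. Among all 32851 promoter windows in the table, 13.6% held TATAAA and 0.475% held CAAAGTCCA, and 6 of 10 members held TATAAA. For the half-site of the pregnane X and constitutive androstane receptors, only the spelling AGTTCA was searched, and other spellings were not. AGTTCA occurred in Cyp3a11 among the members and in 14% of all windows. The core of the aryl hydrocarbon receptor site (GCGTG) occurred in Cyp2b10 and in 32.4%. Exact pairs of AGTTCA, as a direct repeat spaced by 4 bases or an everted repeat spaced by 6, occurred in 0 of 10 member windows. They occurred in 0.0122% and 0.00609% of all windows. These matches are letters in a short window and say nothing of binding.

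Ordered by mean TPM, the 10 members stood in the same order in both genotypes. Cyp2d26 came first with 949 ± 119 TPM in RetSat ko and 1170 ± 173 TPM in control (SD, n = 5 each), which made it the gene of rank 125 by mean TPM over all libraries. Cyp3a13 followed with 899.6 ± 275 TPM in RetSat ko and 1143 ± 161 TPM in control, and the ranges of these first 2 overlapped. Cyp2c65 had 401.4 ± 44.2 TPM in RetSat ko and 460.4 ± 65.9 TPM in control, and Cyp3a13 lay above it in every library. Cyp3a25 (311.6 TPM in RetSat ko, 376.8 TPM in control), Cyp2b10 (244.9 and 267.3 TPM), Cyp2j6 (205.5 and 261.8 TPM) and Cyp3a11 (137.2 and 153.3 TPM) overlapped with their neighbours in that order. Below them, Cyp2c66 (72.43 TPM in RetSat ko, 70.84 TPM in control), Cyp2c55 (29.22 and 24.69 TPM) and Cyp2c29 (2.82 and 2.49 TPM) were each apart from the member above in both genotypes. The TPM of Cyp3a11 divides by 5093 exon bases, a length that takes in a transcript with a retained intron, so it may be too low against the others.

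The sum of the 10 members was 3254 ± 240 TPM in RetSat ko and 3931 ± 451 TPM in control, where the ranges overlapped (3016 to 3622 TPM in RetSat ko, 3253 to 4493 TPM in control). The CYP3A genes made up 41.4 ± 7.01% of it in RetSat ko and 42.7 ± 2.94% in control. The share of Cyp3a13 was 20.4% to 37.0% in RetSat ko, the widest range of the 10 in that genotype, and 25.2% to 32.9% in control. That of Cyp2d26 was 25.8% to 32.7% in RetSat ko and 25.9% to 33.6% in control. Cyp2b10 ranged from 3.0% to 12.9% in RetSat ko and from 4.14% to 9.87% in control. No share differed between the genotypes (10 exact permutation tests, Benjamini-Hochberg adjusted p from 0.635 to 0.889). The smallest unadjusted p was that of Cyp2c55, 0.0635, with a share of 0.908 ± 0.265% in RetSat ko and 0.626 ± 0.109% in control.

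**Figure D3:**
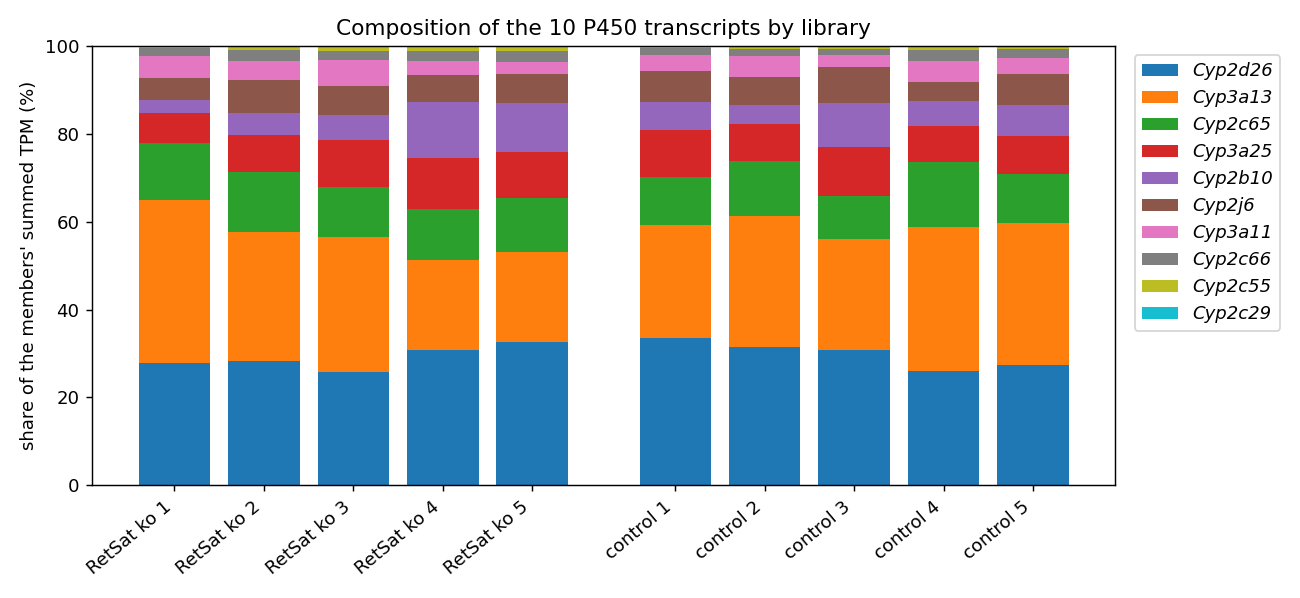
Share of each P450 gene in the summed TPM of the 10 members (%, stacked to 100) in each RetSat ko library (left) and control library (right). Cyp2d26 and Cyp3a13 are the widest bands in all 10 libraries, and the band of Cyp2b10 is widest in RetSat ko 4 at 12.9%.

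The members did not vary together as 1 block. RetSat ko 1 was the highest of all 10 libraries for Cyp3a11 and Cyp3a13 and second for Cyp2c65, while it was the lowest for Cyp2b10 and the ninth for Cyp2c29. Control 3 was the highest for Cyp3a25, Cyp2b10, Cyp2d26 and Cyp2j6. RetSat ko 5 was the highest for Cyp2c29 and Cyp2c55, and the lowest for Cyp3a11. Control 4 was the highest for Cyp2c65 and Cyp2c66 and the lowest for Cyp2j6.

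**Figure D4:**
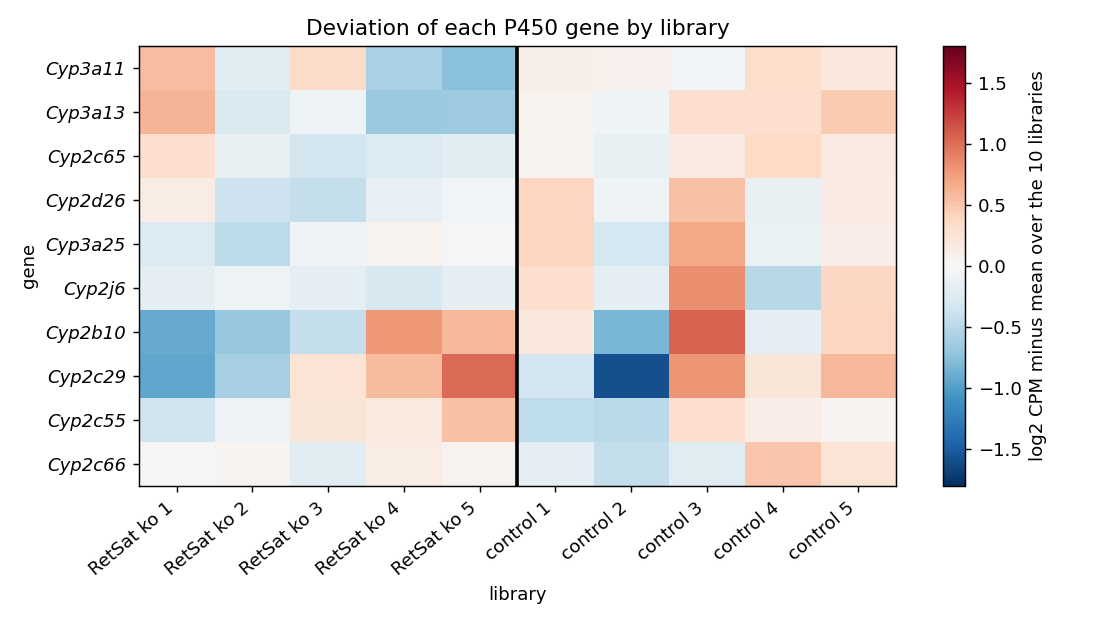
Deviation of each P450 gene from its own mean over the 10 libraries (log2 CPM, colour scale, red above and blue below), with RetSat ko libraries left of the black line and control libraries right of it. Rows are placed by likeness, chosen after the values were seen; Cyp3a11 and Cyp3a13 are highest in RetSat ko 1, and Cyp2b10 and Cyp2j6 are highest in control 3.

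For the most abundant CYP3A and CYP2 members, the genes with the most similar levels were sought among 13215 genes of at least 1 mean CPM, by Pearson's r of log2 CPM over the 10 libraries, as a description. Nearest to Cyp3a13 were Unc5b, a netrin receptor (r = 0.984), Il15, a cytokine (0.982), and Plac8 (0.978). Among the members, Cyp3a11 had r = 0.864 and Cyp2c65 had 0.827 with Cyp3a13, while Cyp3a25 had 0.18. Nearest to Cyp2d26 were Creb3l3, a transcription factor of fasting and lipid metabolism in liver and intestine (0.989), Pgrmc1, a haem-binding protein that interacts with P450 enzymes (0.989), and Crat, carnitine acetyltransferase (0.983). Among the members, Cyp3a25 had r = 0.788 and Cyp2j6 had 0.767 with Cyp2d26. The points share library preparation and cell composition, and genotype is part of the spread.

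Enterocyte markers were toward lower values in RetSat ko in the same direction as most P450 genes. Of 20 enterocyte markers, 19 were negative and 0 passed the threshold (edgeR, 7 at an unadjusted p under 0.05, 0 in DESeq2). Their median log2 fold change was -0.35. Over all genes tested, 12.2% had an unadjusted edgeR p under 0.05, the share to set beside this and the other lists. Of 16 crypt cell cycle markers, all 16 were positive and 0 passed (8 at an unadjusted p under 0.05, 0 in DESeq2; median 0.30), and their summed level was 557 to 807 CPM in RetSat ko and 570 to 651 CPM in control. That 0 passed in either list rested on RetSat ko 1, while the direction of the medians did not. Without that library, when 4.45% of all genes were called, 12 of 16 cell cycle markers were higher in RetSat ko (edgeR adjusted p under 0.05). In the same fit 3 of 20 enterocyte markers (Sis, Slc6a19 and Treh) were lower in RetSat ko. The medians there were 0.36 for cell cycle markers and -0.43 for enterocyte markers. Divided by the summed enterocyte markers of its own library, no member passed (10 exact permutation tests, Benjamini-Hochberg adjusted p from 0.874 to 0.96). The median log2 ratio of RetSat ko over control was 0.007. The median enterocyte sum was 56800 CPM in RetSat ko and 72900 CPM in control. Dividing every member by that sum raises the ratios, so a median near 0 cannot test the part of enterocyte content. This scaling was added after seeing the data. It raised the log2 ratio of each of the 10 members. Cyp2d26 came nearer to 0, at 1.04 ± 0.104% of the enterocyte marker sum in RetSat ko and 1.10 ± 0.049% in control (SD, n = 5 each), while Cyp2c55 and Cyp2c29 moved away from it. Cyp2c55 was 0.0363 ± 0.0108% in RetSat ko and 0.0263 ± 0.00712% in control, a log2 ratio of 0.465, and the log2 ratio of Cyp2c29 was 0.425.

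The partners of the P450 enzymes showed no called change either. Of 15 genes for electron donors and haem supply, 10 were negative and 0 passed (edgeR, 2 at an unadjusted p under 0.05, 0 in DESeq2; median -0.11). The electron donor Por had 593, 395, 379, 406 and 496 CPM in RetSat ko, against 700, 481, 846, 556 and 628 CPM in control, with RetSat ko 1 and 5 inside the control range. The log2 fold change of Por was -0.50 ± 0.165 (SE, edgeR adjusted p = 0.313). Of the haem genes, Cpox was at -0.19 ± 0.0823 and Hmox2 at -0.11 ± 0.0533, and the electron carrier Cyb5b was at -0.21 ± 0.107 (edgeR adjusted p from 0.391 to 0.448).

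Of 15 xenobiotic receptors and their partners, 13 were negative and 0 passed (edgeR, 4 at an unadjusted p under 0.05, median -0.19). DESeq2 also called 0, with a lowest adjusted p of 0.0506, close to the threshold. Nr1i2 averaged 131 ± 20.9 CPM in RetSat ko and 166 ± 32.1 CPM in control (log2 fold change -0.35, edgeR adjusted p = 0.361), and RetSat ko 1 had 168 CPM, with 117 to 125 CPM in the other RetSat ko libraries. Nr1i3 was at -0.20 ± 0.107 and Ahr at -0.25 ± 0.165 (edgeR adjusted p 0.468 and 0.551). Arnt, the partner of the aryl hydrocarbon receptor, was at 35.8 to 41.2 CPM in RetSat ko and 41.7 to 44.4 CPM in control, and its groups did not overlap, but its difference did not pass (log2 fold change -0.22 ± 0.0571, edgeR adjusted p = 0.291). The glucocorticoid receptor gene Nr3c1 was at -0.21 and the coactivator gene Ppargc1a at -0.33 (edgeR adjusted p 0.314 and 0.355).

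Of 35 tested genes for conjugating and hydrolysing enzymes, which act after the P450 step, 31 were negative and 0 passed (edgeR, 8 at an unadjusted p under 0.05, median -0.16). DESeq2 also called 0, with a lowest adjusted p of 0.0546. The glucuronosyltransferase genes Ugt1a7c, Ugt1a1 and Ugt2b35 were at -0.45, -0.39 and -0.25, and the epoxide hydrolase gene Ephx2, whose enzyme opens the epoxides that CYP2C and CYP2J enzymes make from arachidonic acid, was at -0.36 (edgeR adjusted p from 0.291 to 0.331). Of 14 drug transporters, 11 were negative and 0 passed (edgeR, 4 at an unadjusted p under 0.05, 0 in DESeq2; median -0.21). The exporter genes Abcb1a and Abcc2 averaged 155 ± 16.6 and 285 ± 29.2 CPM in RetSat ko, against 239 ± 78.4 and 408 ± 100 CPM in control, with log2 fold changes of -0.62 and -0.52 (edgeR adjusted p 0.321 and 0.306). The transporter genes Slc47a1 and Slc22a5 were at -0.48 and -0.34. Without RetSat ko 1, when 4.45% of all genes were called, 2 of 15 receptor genes (Arnt and Ppargc1a), 5 of 35 conjugating genes (Ces2c, Ephx2, Ugt1a7c, Sult1b1 and Ugdh) and 1 of 14 transporters (Slc22a5) were lower in RetSat ko, and 0 of 15 electron donor and haem genes were called (edgeR adjusted p under 0.05).

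The 10 members made up 92.8% to 94.5% of the summed TPM of all 59 Cyp1, Cyp2 and Cyp3 genes in each library. Of the 49 others, 33 had at most 1 CPM in every library, 3 of them with 0 counts, and 4 had at least 10 CPM on average (Cyp2c68, Cyp2d22, Cyp2s1 and Cyp2u1). Of the 20 that were tested, 11 were negative and 0 passed (edgeR, 6 at an unadjusted p under 0.05, median -0.03). DESeq2 also called 0, with a lowest adjusted p of 0.0552. The lowest edgeR p was that of Cyp2c23, an arachidonic acid epoxygenase gene, at 5.29 ± 0.841 CPM in RetSat ko and 8.57 ± 2.59 CPM in control (log2 fold change -0.70 ± 0.2 SE, edgeR adjusted p = 0.291). Cyp2d22 was at -0.36, Cyp2s1 at -0.30 and Cyp2j9 at -0.54 (edgeR adjusted p from 0.321 to 0.355). Without RetSat ko 1, 1 of 23 was called, Cyp2c68, lower in RetSat ko (edgeR adjusted p = 0.0356), a share near the 4.45% of all genes called in that fit.

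Some P450 genes outside the 10 were high in single libraries. Cyp1a1, the classic target of the aryl hydrocarbon receptor, was at 27.1 CPM in RetSat ko 2 and 0.447 to 5.27 CPM in the other RetSat ko libraries, against 0.430 to 8.69 CPM in control (log2 fold change 0.47 ± 1.31 SE, edgeR adjusted p = 0.909). RetSat ko 2 is the library with the most acinar and B cell transcripts, and their part in the Cyp1a1 value was not tested. Cyp2e1, a liver P450 gene, was at 16.2 CPM in RetSat ko 5, with 1.45 to 3.28 CPM in the other RetSat ko libraries and 1.44 to 3.14 CPM in control. Liver-type Cyp2c50 had 132 counts in RetSat ko 5 and at most 6 counts in any other library.

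**Figure D5:**
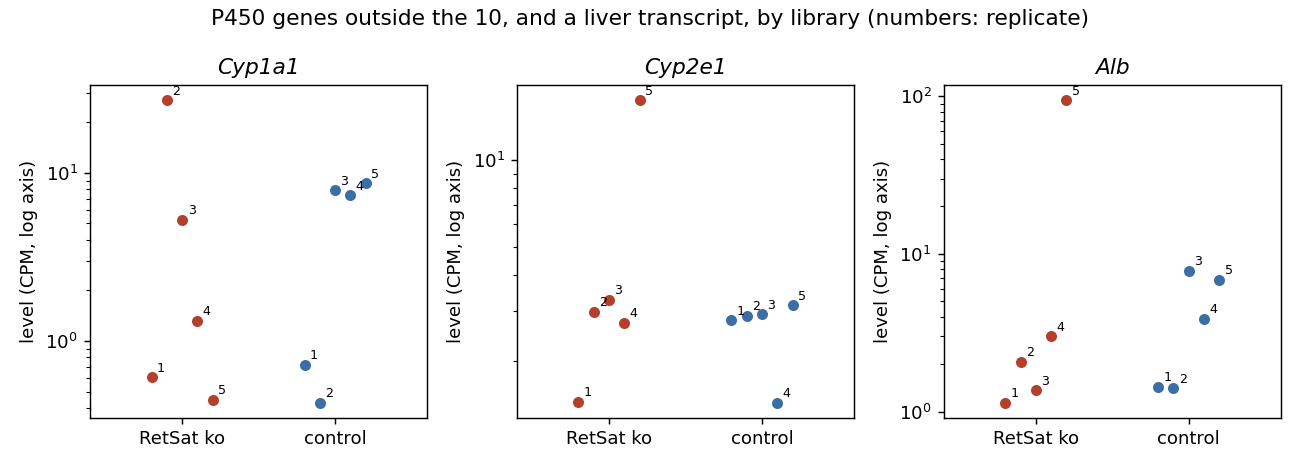
Levels (CPM, log axis) of Cyp1a1, Cyp2e1 and the liver transcript Alb in each RetSat ko library (red, left) and control library (blue, right), with the replicate number beside each point. RetSat ko 2 is highest for Cyp1a1 at 27.1 CPM, and RetSat ko 5 is highest for Cyp2e1 at 16.2 CPM and for Alb at 94.7 CPM.

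A further list held P450 genes of other families, most of them known for acting on fatty acids, retinoids or sterols, and of its 13 tested genes 9 were negative and 0 passed (edgeR, 4 at an unadjusted p under 0.05, 0 in DESeq2; median -0.22). Cyp4v3, a fatty acid hydroxylase gene, was at 419 to 555 CPM in RetSat ko and 564 to 960 CPM in control, with groups that did not overlap (log2 fold change -0.51 ± 0.152 SE, edgeR adjusted p = 0.291). Cyp51, of cholesterol synthesis, was at 0.43 ± 0.157, Cyp4b1 at -0.47 ± 0.185 and Cyp20a1, with no settled function, at 0.24 ± 0.0963 (edgeR adjusted p from 0.331 to 0.361). Without RetSat ko 1, when 4.45% of all genes were called, 2 of the 13 were called, Cyp4f14 and Cyp39a1, 1 higher and 1 lower in RetSat ko.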

How the data were processed

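RNA sequencing was done on 10 mouse jejunum libraries, 5 RetSat ko and 5 control, with groups taken from the labelled genotype. The authors deposited raw read counts, with 1 file for each library. Per the submitters' processing notes, Trimmomatic and STAR were used with build GRCm39 (mm39). Per the file headers, featureCounts 2.0.1 assigned reads to the exons of GENCODE M28 genes, with no strand option. Depth was 102844680 to 128730695 counts per library. At that depth the spread between libraries, not counting error, limits the precision of the members.

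Symbols were matched by identifier for 52081 of 55414 genes (93.99%), and coordinates are those of the files. Counts were tested in R 4.3.3 with edgeR 4.0.16 (filterByExpr, TMM factors, robust quasi-likelihood fit of the 2 groups without covariates). P-values were Benjamini-Hochberg adjusted over 18654 genes, and 0.05 was the threshold. Approximate 95% intervals come from the standard errors with a normal quantile. TPM was computed from the counts and the exon length in the files, and is used only to compare genes. For single values, exact permutation tests (two-sided) were run in scipy 1.17.1. Promoters are from RefSeq (GRCm38.p6) and transcripts from GENCODE M21; 10 of 10 members matched, and coding sequences are the longest open frame that holds the haem stretch (1 coding transcript of Cyp2b10 that lacks it is 27 bases longer).

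The members and the 14 lists beside them were chosen with earlier results of these data known, and so were the tests and alternatives. Named genes are the 10 members, Retsat, Nr1i2, Nr1i3, Ahr and Por, up to 4 genes of each list with the smallest unadjusted p, and the 3 genes most like the top CYP3A and CYP2 members. Other genes are named after their values were seen: the P450 genes high in 1 library, Alb, the markers near 0, Fgb, the abundant family genes, and those called without RetSat ko 1. Alternatives used DESeq2 1.42.0, limma 3.58.1 and sva 3.50.0. No libraries were duplicates, since the chi-square per degree of freedom was at least 54.51 over 45 pairs.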

Additional observations from a re-analysis of the deposited data

Results flagged for a closer look

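Each of 40 genes was examined in both genotypes for 1 library far from the other 4 of its group, by the size of its gap against the group's range. The 40 leave out some genes named in this report, among them the hepatocyte marker Ttr, so the flags are not complete for all named genes. Of the 80 groups, 10 stood apart. Chance sets apart about 1 in 20 groups, but this count cannot be read against that rate, since Alb, Cyp1a1 and Cyp2e1, which give 4 of the 10, were included after their values were seen. Among the 10 P450 genes, this held for Cyp2c65 alone, at 385 CPM in RetSat ko 1 and 247 to 284 CPM in the other RetSat ko libraries. RetSat ko 1 also stood above its group for the pregnane X receptor gene Nr1i2 (168 CPM, others 117 to 125), for Arnt (41.2 CPM, others 35.8 to 36.9), for Ephx2 (1260 CPM, others 829 to 932) and for Slc22a5 (90.3 CPM, others 58.1 to 64.8). RetSat ko 5 stood above its group for Retsat (33.4 CPM, others 15.4 to 16.8), for Alb (94.7 CPM, others 1.14 to 3.01) and for Cyp2e1 (16.2 CPM, others 1.45 to 3.28). RetSat ko 2 stood above its group for Cyp1a1 (27.1 CPM, others 0.447 to 5.27). Control 4 stood below its group for Cyp2e1 (1.44 CPM, others 2.78 to 3.14).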

How the results depend on the processing

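The 10 members gave 0 calls in edgeR with other scaling factors or filters, in DESeq2 (123 genes called in all), in limma-voom with and without sample weights (10 genes called in all with weights), with 1 surrogate variable and without the libraries richest in acinar, B cell or hepatocyte transcripts. Over all genes, 6 of 18654 were called with 1 surrogate variable. Without the acinar-rich, B cell-rich and hepatocyte-rich libraries, 5 of 18944, 4 of 18990 and 4 of 18696 were called. With so few calls over all genes, 0 of 10 members says little in these fits. Leaving out 1 library at a time gave 0 to 1 member calls, 5 to 846 calls over all genes, and a median log2 fold change of the members from -0.343 to -0.173, and the 1 member call and the 846 came without RetSat ko 1. Per summed enterocyte marker CPM, added after seeing the data, the median was 0.007, and the signs of Cyp3a11 (0.024), Cyp2b10 (0.137) and Cyp2c66 (0.217) turned. The sign of Cyp2c66 also turned with upper-quartile factors (0.013), limma-voom (0.03, with weights 0.028), 1 surrogate variable (0.016) and without the acinar-rich (0.282) or B cell-rich (0.184) libraries, that of Cyp2c29 with 1 surrogate variable (-0.215), and that of Cyp2b10 without the acinar-rich libraries (0.065). Retsat was at -4.506 in the 6 libraries lowest in acinar transcripts (edgeR adjusted p = 0.0918), so that fit did not call even the targeted gene. With 1 library left out, log2 fold changes ran from -0.494 to 0.075 for Cyp2b10, from -0.195 to 0.316 for Cyp2c29 and from -0.1 to 0.139 for Cyp2c66. Share differences in percentage points, RetSat ko minus control, ran from -0.169 to 0.642 for Cyp3a11, -4.04 to 0.119 for Cyp3a13, -0.341 to 0.79 for Cyp3a25, -0.4 to 2.08 for Cyp2b10, -1.67 to 0.277 for Cyp2d26 and -0.791 to 0.205 for Cyp2j6. The cause of these changes was not tested, beyond the fewer libraries in fits that leave some out.

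Same-numbered libraries did not deviate together: their deviations correlated at -0.2292 to 0.0139, with -0.4378 to 0.4097 for libraries of different numbers. Of 5 RetSat ko libraries, 0 correlated best with their own number. Such correlations cannot show whether libraries were paired by design. With the replicate number as a block, edgeR called 4 genes in all and 0 members, and Cyp2c66 was at 0.03.

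At this depth counting error is small beside the spread between libraries, and that spread sets the smallest difference that 5 against 5 libraries can show.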
